A study of Drosophila melanogaster with 2 samples.

Results

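The regions described are gooseberry (gsb) ChIP-seq peaks that flank promoters: their summits, the points of highest enrichment, lie over 200 and up to 1000 bp from the nearest annotated transcription start site (TSS). Chromatin immunoprecipitation was done with an anti-GFP antibody on whole Drosophila melanogaster embryos, 0 to 18 h old, of a transgenic strain named gsb-GFP in the labels, whose flies express a gsb-eGFP fusion protein. There was 1 group of 2 biological replicates, which share genotype, age and antibody. The control that the labels point to is not analysed here, so every comparison is between regions of the same libraries. Embryos of this age range mix stages and all tissues, and a peak cannot be assigned to a cell type. Members were the summits at that distance in the combined deposited list of both replicates on the 6 main chromosome arms. Of 780 such summits, 83 with protein-coding TSSs of both strands within 1 kb were left out. This gave 697 of 2877 main-arm peaks, or 24.2% (exact 95% interval 22.7 to 25.8). All 697 also lay over 200 bp from every RefSeq transcript start. Peak lists hold no read counts, so depth is unknown, and intervals of shares are exact binomial intervals that cover counting error only.

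The protein encoded by gsb belongs to the Pax family, whose members bind DNA through a paired domain and often also a homeodomain, and it is known for its role in segment polarity and in patterning the embryonic epidermis and nerve cord. The core promoter sits at the TSS, and the DNA beside it can hold proximal regulatory elements, other promoters of the same gene, and the first exons and introns. Sequences known from fly promoters include the DNA replication-related element (DRE), the M1BP site, Ohler motif 7 and the GA repeats bound by GAGA factor.

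The DNA at strong members is printed first because the motif results refer to windows of this kind. Each line is the 101 bases centred on a summit, on the plus strand, from the RefSeq copy of Release 6 (dm6). At flanking summits 37 of 2080 6-mers were more frequent both by Fisher's test and within strata of GC content. Capitals mark only leading ones, on either strand, so unmarked stretches may hold others of the 37. The first 5 are the strongest members on the arms shown, and the downstream peak of lncRNA:CR44619 is shown as a second strong member downstream of its TSS. Dpp10 was chosen after its sequence was seen, because it holds 3 marked words.
ph-p, chrX:2137289-2137389: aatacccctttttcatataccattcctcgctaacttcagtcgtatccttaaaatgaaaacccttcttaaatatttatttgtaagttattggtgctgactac
lncRNA:CR44619 upstream peak, chrX:12751351-12751451: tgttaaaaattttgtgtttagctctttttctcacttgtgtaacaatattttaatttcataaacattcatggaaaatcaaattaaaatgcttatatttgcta
CG9663, chr2L:3302148-3302248: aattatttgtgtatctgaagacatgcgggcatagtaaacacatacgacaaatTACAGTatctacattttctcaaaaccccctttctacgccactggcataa
lncRNA:CR45643, chr3R:16222431-16222531: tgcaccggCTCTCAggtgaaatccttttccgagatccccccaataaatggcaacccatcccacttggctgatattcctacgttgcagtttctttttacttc
Atf3, chrX:1275469-1275569: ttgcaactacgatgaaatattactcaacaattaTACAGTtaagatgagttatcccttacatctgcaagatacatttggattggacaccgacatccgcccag
lncRNA:CR44619 downstream peak, chrX:12752317-12752417: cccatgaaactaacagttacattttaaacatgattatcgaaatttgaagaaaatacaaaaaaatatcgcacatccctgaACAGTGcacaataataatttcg
Dpp10, chr2L:6601352-6601452: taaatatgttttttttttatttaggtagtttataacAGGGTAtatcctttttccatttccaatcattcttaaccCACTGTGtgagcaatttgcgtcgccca
No capitals appear at ph-p or at the upstream peak of lncRNA:CR44619. In Dpp10 a run of capitals is formed by ACAGTG and ACTGTG overlapping on opposite strands.

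The strongest flanking peak lay at ph-p, a Polycomb group gene. Its summit was 484 bp upstream of the nearest TSS, inside an intron of the gene. The signal, a value of the authors' peak caller on a scale not given in the sources used here, was 1347 in the combined list, 767 in replicate 1 and 595 in replicate 2. Each list has its own scale, so signals of different lists are given side by side and are not subtracted or divided. A second ph-p member lay 448 bp downstream in the 5' UTR, with a combined signal of 595, and with 317 and 295 in replicates 1 and 2. Both passed in each replicate's own list. The next strongest was upstream of lncRNA:CR44619, at 1051 (replicates 625 and 434), and that gene also had a downstream member at 627 (replicates 345 and 282).

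The genes at other strong members have varied roles. Sox14, a high mobility group transcription factor, had a combined signal of 779 at 246 bp upstream, with 417 and 365 in the replicates. HmgZ, which encodes another high mobility group protein, had 918 at 570 bp upstream, with 533 and 386. Atf3, a basic leucine zipper factor, had 778 at 235 bp upstream, with 444 and 325. The neuronal RNA-binding protein gene elav had 575 at 250 bp upstream, with 291 and 278, and a second member 558 bp downstream at 174, with 77.8 and 100.1. The 20 strongest members all passed in both replicate lists, and 15 of them were upstream of their TSS.

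Further members among the 20 strongest were at genes of other kinds or of no role given here. CG1888 had 951 (replicates 487 and 463), CG9663 had 873 (445 and 356) and lncRNA:CR45643 had 849 (410 and 427). CG31145 had 761 (479 and 280), mlt had 714 (367 and 330) and CG46429 had 641 (356 and 296). Lpin, the fly lipin, had 630 (324 and 295). lncRNA:CR46035 had 602 (307 and 298), osp had 602 (280 and 309), Rtnl1, a reticulon gene, had 601 (319 and 278), and lncRNA:CR43287 had 582 (341 and 262). Of the 100 strongest of all main-arm peaks, 29 were flanking members.

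Flanking summits made up a larger share of the passing peaks than of the remaining candidates. Candidate regions are the entries of the authors' ranked list, of which 2.07% on the main arms passed; in the flanking class 2.82% passed. The class held 24.2% of passing peaks and 17.6% of non-passing regions, an odds ratio of 1.5 (95% interval 1.37 to 1.63, two-sided Fisher's exact test p = 1.01e-18). In the replicates' own lists the odds ratio was 1.53 and 1.47. The other candidates pool regions at the TSS, at divergent gene pairs and over 1000 bp away. Their separate passing shares are not given here, so the excess is not shown to be particular to the flanking class. Peaks in a library are not independent replicates, so this p and the other p-values over regions describe the regions of these 2 libraries and are too small as statements about embryos.

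Members lay mostly upstream of their nearest TSS. Upstream summits numbered 446 of 697 (64.0%, interval 60.3 to 67.6), against 37.9% of the non-passing candidate regions of the same class (odds ratio 2.92, interval 2.49 to 3.41, two-sided Fisher's exact test p = 7.26e-43). The value was 3.11 in replicate 1's list and 3.35 in replicate 2's. It fell where the base composition or the kind of DNA was held: 1.92 within GC strata, 2.01 outside coding exons and 1.87 in introns only. Narrowing the class to 200 to 500 bp raised it to 5.48.

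The share of candidates that passed changed with distance on the upstream side. It was 9.82% (129 of 1313) at 201 to 300 bp, 6.55% at 301 to 400 bp, 4.03% at 501 to 600 bp, 1.64% (19 of 1162) at 801 to 900 bp and 2.21% at 901 to 1000 bp. Downstream the share was lowest beside the TSS, 0.852% (16 of 1877) at 201 to 300 bp, and highest, 2.31%, at 501 to 600 bp. The lowest bin was the same in each replicate's own list, but the highest was not. It was 701 to 800 bp in replicate 1 (1.56%) and 401 to 500 bp in replicate 2 (1.52%). Each replicate's own list gave the same contrast of near and far upstream bins, 7.74% in replicate 1 and 7.26% in replicate 2 at 201 to 300 bp, against 1.71% and 1.30% at 901 to 1000 bp. Over the whole range 4.68% passed upstream and 1.66% downstream.

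**Figure D1:**
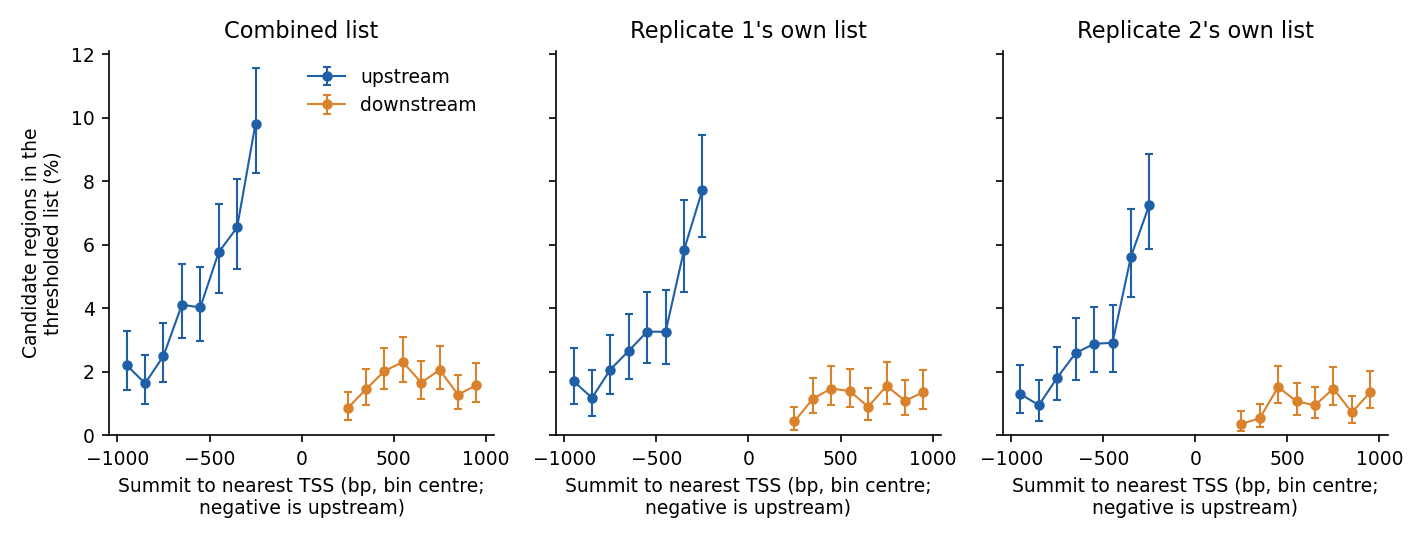
Share of candidate regions (percent) that passed the authors' threshold, by distance of the summit from the nearest TSS in 100-bp bins, upstream (negative) and downstream, in the combined list and in each replicate's own list. Points are shares and bars exact 95% intervals; in the combined list upstream shares are 9.82% at 201 to 300 bp, lowest at 801 to 900 bp (1.64%) and 2.21% at 901 to 1000 bp, and every downstream bin there stays at or below 2.31%.

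The members lay in several kinds of DNA. Introns held 359 (51.5%), intergenic DNA 192 (27.5%), coding exons 80 (11.5%), 5' UTRs 34, other exons 28 and 3' UTRs 4. Of the upstream members, 177 of 446 were inside their own gene, upstream of one of its alternative TSSs, 83 were inside another gene and 186 were in no gene. Downstream, 230 of 251 were in their own gene. Among the candidates of the class, 5.53% passed in introns, 4.53% in intergenic DNA and 0.758% (80 of 10561) in coding exons.

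Coding-exon members differed in their values from the others. Their median combined signal was 78.4, against 127 for intron members and 133 for intergenic members, and their median GC content in the 201 bp around the summit was 57.5%, against 35.8% in both other groups. Only 2 of 80 passed in both replicate lists, against 191 of 359 intron members. The strongest were CG44812 at 157 (replicates 92.1 and 64.1), asRNA:CR46005 at 143 (86.8 and 56.1) and CG31259 at 114 (54.1 and 60.6). Of the strongest 233 members 0 lay in coding exons, an interval reaching up to 1.57%, and of the weakest 232, 66 did. GC content and signal had a Spearman rho of -0.41 over the 697 members, which share libraries and base composition. The part of GC content in these differences was not tested.

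**Figure D2:**
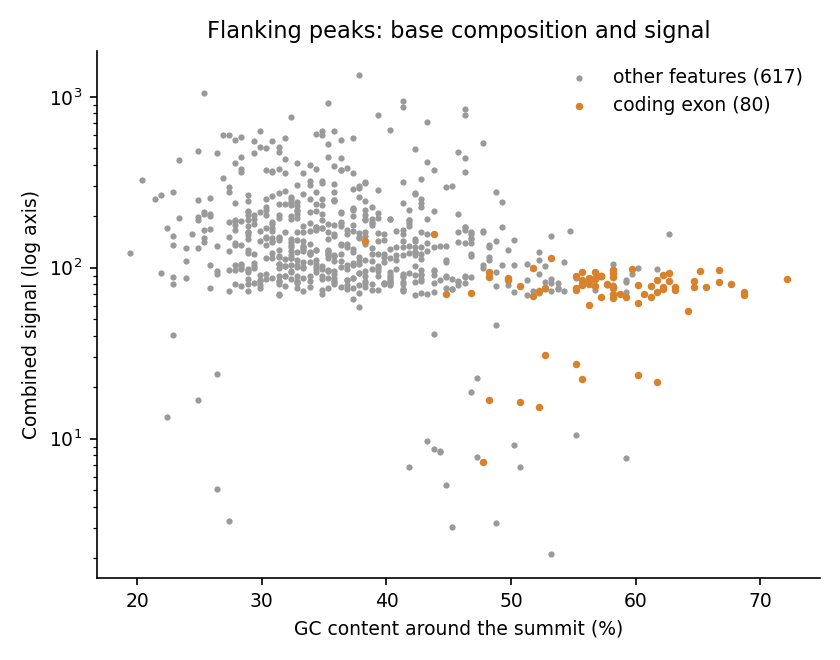
Combined signal (log axis) against GC content (percent, 201 bp around the summit) of the 697 members, with the 80 in coding exons in orange and the other 617 in grey. Coding-exon members lie mostly at high GC and low signal, with medians of 57.5% and 78.4.

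The nearest TSS belonged to a protein-coding gene for 602 members, a noncoding RNA gene for 87, a snoRNA for 4, a tRNA for 3 and an snRNA for 1. The 697 members lay at 606 genes, and 80 of these genes had more than 1 member. There were 10 genes with more than 2, among them Rtnl1 with 4 summits at 601, 321, 86.7 and 9.66. Other such genes were dnc, which encodes a cAMP phosphodiesterase (371, 267 and 183), Msp300, a nesprin (425, 270 and 83.8), Moe, the fly moesin (213, 120 and 76.7), and CHES-1-like, a forkhead factor gene (268, 203 and 97.7). All 3 dnc members were upstream of alternative TSSs of the gene, as were the 4 of Rtnl1. Members sharing a gene are not independent, and 162 members had another passing summit within 1 kb.

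For 47 members (6.74%) the nearest TSS also had a passing summit within 200 bp. For 291 members that TSS had at least a candidate region there. Of all protein-coding genes, 7.63% had a passing summit within 200 bp of a TSS. That share counts genes over any of their TSSs, so it is not comparable with a share of members. Among the 47 with a passing core peak the member was the stronger in 20. The strongest of those members was mlt, at 714 with a core peak of 106. LPCAT had 477 and 153, and MYPT-75D had 475 and 122.

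A small set of members had very low signal. Of the 697, 30 were below 40, and 28 of these were overlapped by a stronger passing peak, with the nearest passing summit 199 to 249 bp away (median 204). The list as a whole had the same feature, with 119 of 121 peaks below 40 overlapped. In all, 43 members were overlapped by a stronger peak, and without them the upstream odds ratio was 2.85.

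In strength and repeatability, members were above distal peaks in the whole combined list, and no difference from core promoter peaks passed the test. The median signal was 119 for members, 117 for 497 core peaks (summits within 200 bp of a TSS, leaving out those at divergent gene pairs) and 103 for 1169 distal peaks (over 1000 bp). Members above the median of all main-arm peaks made up 52.8%, against 52.9% of core peaks (odds ratio 0.995, interval 0.790 to 1.25, two-sided Fisher's exact test p = 1) and 41.9% of distal peaks (1.55, interval 1.28 to 1.87, p = 6.24e-06). Summits in both replicate lists made up 45.1% of members, 46.1% of core peaks (0.959, interval 0.762 to 1.21, exact p = 0.768) and 35.5% of distal peaks (1.49, interval 1.23 to 1.80, p = 4.68e-05). Both distal differences depended on the threshold. At a global irreproducible discovery rate (IDR) of at most 0.001 the strength difference no longer passed (odds ratio 1.25, interval 0.926 to 1.68, exact p = 0.151), and that in repeatability was 0.783 (exact p = 0.298). The strength cut there was the median within the strict set, with 48.9% of 321 members and 43.4% of 389 distal peaks above it. For repeatability the value among peaks above the median signal was 1.09. The intervals against core peaks still allow differences in either direction, and with divergent pairs kept in both classes both odds ratios passed the threshold (0.819 and 0.801).

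In the replicates' own lists, members were close to main-arm peaks as a whole. Of the 697, 314 (45.1%) passed in both, 94 in replicate 1 only, 72 in replicate 2 only and 217 (31.1%) in neither, and 567 (81.3%) were in the authors' conservative list. Over all main-arm peaks 42.6% passed in both, 30.1% in neither and 82.0% were in the conservative list. Summits of 660 fell in candidate regions of both replicates, with median signals of 63.5 and 58.8 and a Spearman rho of 0.77 between them. The rho was 0.73 over all main-arm peaks and 0.75 over core peaks, and all of these were selected by the IDR for ranks that repeat, so it is a description. Passing in both lists followed strength, at 97.0% of the strongest 233, 37.5% of the middle 232 and 0.431% of the weakest 232.

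**Figure D3:**
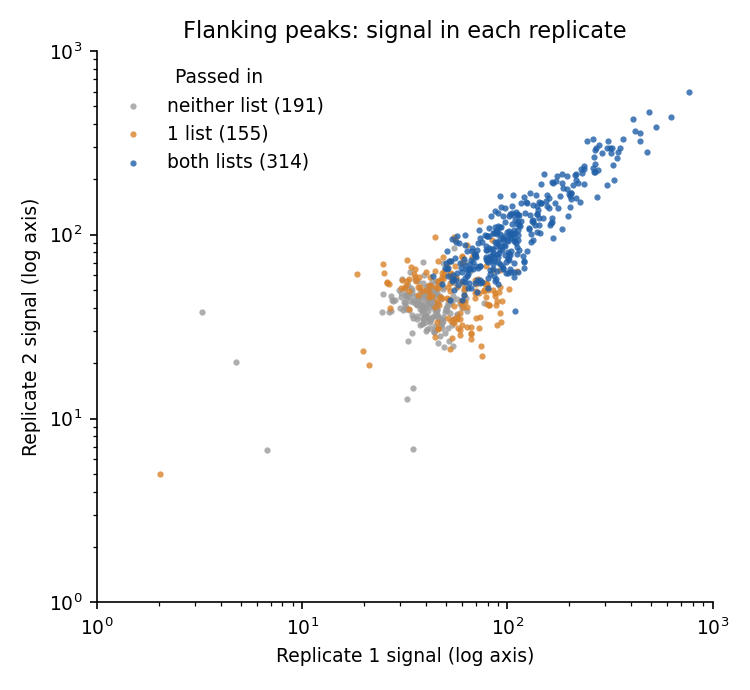
Signal of the 660 members in candidate regions of both replicates, replicate 1 against replicate 2 (log axes, each list on its own scale). Colours give the number of replicate lists passed; those that passed in both (314) lie at the high end of both axes, and the rank correlation is 0.77.

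For 14 motifs, searched on both strands up to 100 bp from the summit, members were set against the non-passing candidates of the same distance class. The TATA box (searched as TATAAA) was found at 31.0% of members and 12% of non-passing regions, the homeodomain monomer (TAATTA) at 11.0% and 7.16%, the GA repeat of GAGA factor (searched as GAGAGAG, here GAGA) at 5.74% and 2.70%, and Ohler motif 7 (CATCNCTA) at 2.30% and 1.09%. These and both homeodomain dimers passed Fisher's exact test with Benjamini-Hochberg adjustment, and the E-box (CAGCTG) was less frequent, 8.61% against 12.4%. Median GC content was 37.3% at members and 49.3% at the non-passing regions, and within 5 strata of GC content the Cochran-Mantel-Haenszel test, adjusted like the exact test, still called only GAGA (odds ratio 2.77, adjusted p = 8.09e-08) and motif 7 (2.19, adjusted p = 0.0269). The homeodomain monomer turned to 0.732 there and the dimers to 0.785 and 0.891, none past the threshold. The paired domain core (GTCACGC), a sequence of the kind Pax proteins bind, was at 0.861% of members and 1.20% of non-passing regions (exact test, adjusted p = 0.691).

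The GAGA and motif 7 results did not hold everywhere. GAGA passed in both replicate lists (odds ratios 1.98 and 2.47) but not in windows of 50 bp on either side (1.29). Motif 7 passed in neither replicate list, at 1.40 in replicate 1 and 1.55 in replicate 2. Of the GAGA sites at members, 20.9% lay within 25 bp of the summit, where 25.4% would lie if sites were spread evenly.

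**Figure D4:**
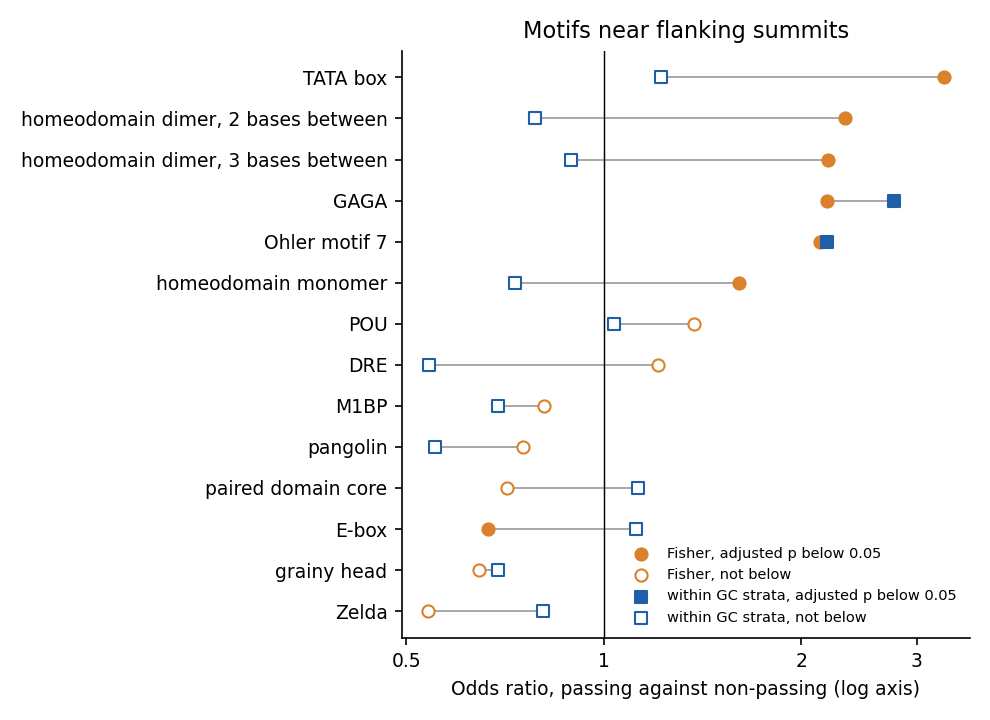
Odds ratio (log axis) of each of the 14 motifs at flanking summits against non-passing candidates of the same class, by Fisher's test (circles) and within GC strata (squares), filled where the adjusted p is below 0.05. For GAGA and Ohler motif 7 both symbols are filled, while the homeodomain motifs move from above 1 to below 1 within GC strata.

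Members carried the DRE and the M1BP site less often than core promoter peaks did. The DRE (TATCGATA) was at 0.287% of members and 5.23% of core peaks (odds ratio 0.0521, Fisher's exact test, adjusted p = 1.70e-07), and the M1BP site (GTCACACT) at 0.287% and 3.82% (0.0724, adjusted p = 2.64e-05). The E-box was at 8.61% and 13.5% (0.605, exact test, adjusted p = 0.0359), which was lost within GC strata (0.654, adjusted p = 0.082). In replicate 1's list alone the M1BP difference did not pass (0.468), and in replicate 2's it did. GAGA was at 5.74% of members and 7.85% of core peaks (0.715), and motif 7 at 2.30% and 4.63% (0.484). Neither difference passed in the combined list. In replicate 1's list GAGA was less frequent at members than at core peaks (0.481, exact test, adjusted p = 0.0335). In replicate 2's list the GAGA difference did not pass (0.837). Against distal peaks the 1 motif that passed was GAGA, 5.74% against 2.91% (2.03, exact test, adjusted p = 0.0435), and it passed in neither replicate list (1.77 and 1.89).

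**Figure D5:**
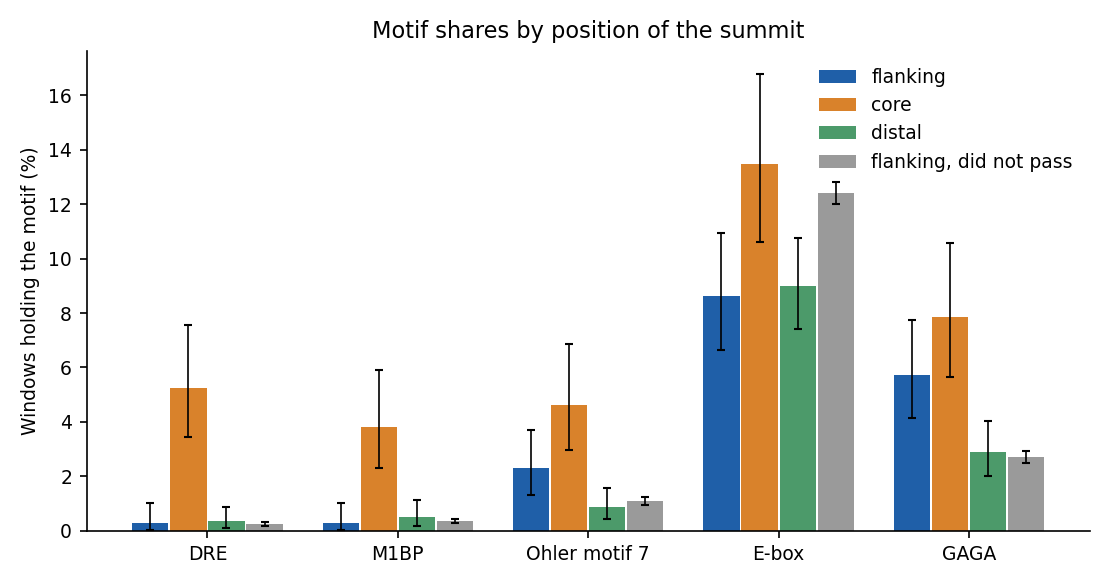
Share of windows (percent, 100 bp on either side of the summit) that hold the DRE, M1BP site, Ohler motif 7, E-box or GAGA sequence, for flanking, core and distal peaks and for flanking candidates that did not pass; bars are exact 95% intervals. The DRE is at 5.23% of core and 0.287% of flanking peaks.

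All 2080 6-mers, with both strands pooled, were tested in the same way. By Fisher's test 420 were more frequent at members (20.2% of those tested) and 683 less frequent, and all 36 words of A and T only were among the 420. Within GC strata 55 were more frequent (2.64%) and 9 less frequent, with 37 and 6 in both fits. The leading word was ACAGTG, at 20.2% of members and 8.56% of non-passing regions (2.71 by Fisher's test, adjusted p = 3.61e-19, and 2.66 within strata, adjusted p = 6.92e-20). It was at 22.8% of replicate 1's flanking peaks and 24.8% of replicate 2's. Next came ACTGTA, at 15.9% against 5.61% (3.19, and 2.22 within strata), and CTCTCA, at 10.3% against 5.42%. Members with ACAGTG had a median signal of 130 and those without 114.

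These words were not shown to be particular to the flanking peaks. ACAGTG was at 18.9% of core peaks and 21.2% of distal peaks, and it did not pass against either (exact test, adjusted p = 0.899 and 1). Of 2080 6-mers, 5 were more and 12 less frequent at members than at core peaks by Fisher's test. Among the 12 were TATCGA, at 6.46% and 14.7% (0.401, exact test, adjusted p = 0.00482), and ATCGAT, at 4.16% and 10.5%, both contained in the DRE. These calls rest on the combined list: in replicate 1's own list 0 6-mers were more and 2 less frequent, in replicate 2's 0 and 0, and at the strict IDR and above the median signal 0 and 0. No 6-mer passed against distal peaks by Fisher's test or within GC strata. Sites of ACAGTG were at the centre less often than if spread evenly: 12% lay within 25 bp of the summit.

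The genes of 16 lists were counted beside the protein-coding genes as a whole, of which 3.74% (521 of 13945) had a flanking member nearest to one of their TSSs and 7.63% had a passing summit within 200 bp of a TSS. The lists were chosen with earlier results of these data known, and no list was tested. Of 10 Pax genes, 1 had a flanking member, Poxm, a Pax gene of the mesoderm, at 158 (replicates 102 and 50.9). No member lay at gsb or gsb-n. Of 37 segment polarity and Wingless or Hedgehog genes 2 had one: sgg, the fly GSK3, at 287 (139 and 143), and the ligand gene Wnt6, at 111 (59.7 and 69.9). None of 11 Hox genes and cofactors and none of 12 glial and midline genes had one.

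Among the other patterning lists the counts were at most 3, so their shares have wide intervals. The lowest share was 3.13% in the mesoderm and muscle list (interval 0.0791 to 16.2). The highest was 13.6% in the EGFR and FGF list (interval 2.91 to 34.9). Over all protein-coding genes the share was 3.74%. Of 24 gap and pair-rule genes 3 had a member: bcd at 120, cnc at 101 and cad at 95.4, the last in a coding exon. Of 36 neuroblast and neuron genes 3 did: elav at 575, brat, a growth regulator of neuroblasts, at 445, and the Notch inhibitor gene numb at 253. Of 22 EGFR and FGF genes 3 did: aos, an EGFR inhibitor, at 143 and 87.0, aop, an Ets repressor, at 120, and sty, the fly sprouty, at 108 and 91.8. Of 23 Dpp pathway genes 2 did: Mad, the fly Smad, at 120, and the repressor gene brk at 85.7. The list of 19 Notch pathway genes had numb alone, the 32 mesoderm and muscle genes had sls, the fly titin, at 248, and the 18 epidermis and cuticle genes had crb at 157 and Edg78E at 84.7.

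The remaining lists hold genes used in every cell and chromatin genes. Core summits are here any passing summits within 200 bp of a TSS. Members leave out divergent pairs and count at their nearest TSS only. By these unlike rules, core summits were at more protein-coding genes (7.63%) than flanking members (3.74%). The same held in the mesoderm and muscle list (4 and 1), the EGFR and FGF list (5 and 3) and the glial and midline list (2 and 0). Counts went the other way for gap and pair-rule (0 and 3), neuroblast and neuron (1 and 3) and Dpp pathway genes (1 and 2). They were equal in the Pax, segment polarity, Hox, epidermis and Notch lists. Of 92 ribosomal protein genes 46 had a passing summit within 200 bp of a TSS and 1, RpL24, had a flanking member, at 76.7 beside a core peak of 141. Of 33 translation factor genes the counts were 9 and 0, of 73 mitochondrial ribosomal protein genes 7 and 0, and of 20 glycolysis and housekeeping genes 7 and 1, Pgk at 174. Among 38 promoter, insulator and chromatin factor genes 9 had a core summit and 3 had flanking members: ph-p, its paralogue ph-d at 181 and 135, and lola at 76.4. The 2 summits at ph-d fell in 1 candidate region of replicate 2, so they share its signal of 82.1. How reads were placed between the similar copies ph-p and ph-d is not stated in the sources used here.

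The peaks nearest to the class bounds are given as a description. Just inside the inner bound were mrt at 201 bp (413) and sky at 201 bp (277), and just outside it CG3860 at 200 bp (139) and asRNA:CR44386 at 200 bp (70.1). At the outer bound Moe at 997 bp (120) and Mnr at 996 bp (94.2) were the farthest members, with Svil at 1001 bp (178) and chif at 1002 bp (547) just outside.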

How the data were processed

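Peak lists of 2 biological replicates were used. Per the labels, coordinates are on dm6. The authors deposited, for each replicate and for both together, ranked candidate regions and the subset thresholded on the irreproducible discovery rate (IDR), with a conservative list for both. Each deposited region carries the authors' signal, a peak caller value of unstated scale, a score that reaches 1000 and is at least 830 in the thresholded lists, and, in the ranked lists, the −log10 of the global IDR. Neither peak caller nor aligner is named there.

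Summits were set against TSSs of Ensembl release 115, without pseudogenes and transposable elements. The 81 main-arm candidates at a passing score that the thresholded list does not hold were left out of the non-passing regions. Motifs and 6-mers were searched on both strands within 100 bp of summits. Shares were compared by two-sided Fisher's exact tests, with Benjamini-Hochberg adjustment over 14 motifs or 2080 6-mers and a threshold of 0.05. Alternatives included a Cochran-Mantel-Haenszel test over 5 strata of GC content, cut at quintiles of the members' GC. Odds ratio intervals are 95% normal approximations on the log scale. Tests were run on simulated data first, using Python 3.11.15, scipy 1.17.1, numpy 2.4.6 and pandas 2.3.3. Named genes are those of the 20 strongest members, 1 of which is not reported here, up to 4 per gene list and the members beside each distance bound; those of coding exons, of several members per gene and of core companions were named after their values were seen. The members, motifs and gene lists were chosen with earlier results of these data known.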

Additional observations from a re-analysis of the deposited data

How the results depend on the processing

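No paired analysis was possible because the labels give 1 group only. The flanking and upstream odds ratios kept their direction and stayed past the threshold under every alternative run, at 1.31 to 1.99 and 1.87 to 5.48. With divergent pairs kept, the odds ratios against core peaks were 0.819 (above the median signal) and 0.801 (both replicate lists), now past the threshold. Against distal peaks, a global IDR of at most 0.001 gave 1.25 for strength, cut at the median of the strict set, with the call lost. For both lists it gave 0.783, reversed, and peaks above the median signal gave 1.09. Motifs more frequent than in non-passing regions fell from 6 to 3 (200 to 500 bp), 3 (50 bp windows) and 2 (GC strata), and less frequent ones from 1 to 0 (GC strata). GC strata left 55 6-mers more and 9 less frequent, and turned the homeodomain monomer to 0.732, its dimers to 0.785 and 0.891 and the E-box to 1.12. Against core peaks, 1 motif was more frequent with divergent pairs kept, and less frequent ones numbered 0 at the strict IDR and 1 above the median signal. Against distal peaks GAGA's call was lost (0 motifs) at the strict IDR, above the median signal, in 50 bp windows, in each replicate's own list (range 0 to 0) and without peaks that a stronger peak overlaps. The 6-mer comparison with core and distal peaks, the overlap alternative and the intron, coding-exon and GC checks of the upstream share were chosen after seeing the data. Against core, 6-mers more and less frequent numbered 13 and 30 in the conservative list, 0 and 0 at the strict IDR and above the median signal, 3 and 3 over 300 bp, 9 and 19 with protein-coding TSSs, 0 and 1 in 50 bp windows, 13 more with divergent pairs kept, and 0 to 0 and 0 to 2 in the replicates' own lists. Of the values for single motifs under the alternatives, 34 lost and 4 gained a call, the 4 homeodomain and E-box values above turned a called difference, and the other 459 kept their side of the threshold, some with odds ratios that crossed 1 without a call. The cause of these changes was not tested. Unknown depth limits any statement on regions that did not pass.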
